A study of Mus musculus with 16 samples.

Results

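The 10 genes described here code for membrane carriers of 3 families, Slc36, Slc15 and Slc43. They were taken by name from the 19938 named genes of the array table: Slc36a1, Slc36a2, Slc36a3, Slc36a4, Slc15a2, Slc15a3, Slc15a4, Slc43a1, Slc43a2 and Slc43a3. No threshold on their values was used, but the group was chosen with earlier results of these data known. All 10 were found, each with a single row of the table. They were measured in N25/2, an immortalized line of hypothalamic cells from mouse embryos, grown in serum-supplemented DMEM and then held in a medium that contained amino acids (control) or lacked them (deprived). At 5 h there were 4 control and 4 deprived arrays, and at 1, 2, 3 and 16 h there was 1 array of each kind, 16 in all. The line is the only cell model of the series, the labels do not say whether the 4 arrays of a group came from separate cultures, and p-values therefore measure the spread between these arrays, which may be technical. All levels are log2 values of whole-transcript arrays, all differences are deprived minus control on that log2 scale, and precision is limited by how many arrays there were.

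Slc36a1 and Slc36a2 move small amino acids such as glycine, alanine and proline together with a proton, whereas Slc36a4 is reported to work without proton coupling. Slc36a1 does so out of lysosomes and has been linked to the nutrient-sensing kinase complex mTORC1, which is switched on at the lysosomal surface. Slc15 carriers bring di- and tripeptides across membranes with protons, Slc15a2 at the cell surface, and Slc15a3 and Slc15a4 in lysosomes, from which they also release histidine. Slc43a1 and Slc43a2 carry branched-chain amino acids, phenylalanine and methionine by facilitated diffusion, which needs no proton, and Slc43a3 carries purine nucleobases, so the Slc43 genes and Slc36a4 belong to the group by family name and not by proton coupling.

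In RefSeq on GRCm38.p6, Slc36a3 (chr11:55124815-55151722), Slc36a2 (chr11:55158468-55185099) and Slc36a1 (chr11:55204322-55236330) lie in a row, with gaps of 6.75 and 19.2 kb. Slc43a1 (chr2:84838855-84863586) and Slc43a3 (chr2:84936545-84958509) are 73.0 kb apart, and Slc43a2 lies at chr11:75529915-75577575. Slc36a4 lies at chr9:15709738-15742388, Slc15a2 at chr16:36750161-36785158, Slc15a3 at chr19:10842544-10857915 and Slc15a4 at chr5:127594545-127633292. The Affymetrix rows were matched to these genes by symbol and Entrez identifier, and where their probes lie within each gene was not analysed here.

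RefSeq promoter windows, 250 bases before to 50 after a transcript's start, were at hand for 7 of the 10 genes (8 windows). They were searched on both strands for 3 motifs: CACGTG, the core of the element bound by the lysosomal regulators TFEB and TFE3; TCACGTGA, a longer form that overlaps that core; and TGATGNAA, the composite element of ATF4 and C/EBP factors. Of all 32851 windows in the table, 7.15% held CACGTG, 0.974% held TCACGTGA and 3.97% held TGATGNAA. The window of Slc36a1 held CACGTG at 2 places, beginning at -31 and -3 relative to the start, the second within TCACGTGA. That of Slc43a1 held CACGTG at 1 place, and the other 6 windows, those of Slc36a3, Slc36a4, Slc15a2 and Slc15a4 and both of Slc43a2, held no match to these letters. The windows of the 3 genes that the expression results turn on are shown 5′ to 3′ on the gene's strand, with CACGTG in capitals: Slc36a1 (chr11:55204090-55204389, plus strand), Slc15a4 (chr5:127617343-127617642, minus strand) and the first of the Slc43a2 windows (chr11:75531444-75531743, plus strand).
Slc36a1: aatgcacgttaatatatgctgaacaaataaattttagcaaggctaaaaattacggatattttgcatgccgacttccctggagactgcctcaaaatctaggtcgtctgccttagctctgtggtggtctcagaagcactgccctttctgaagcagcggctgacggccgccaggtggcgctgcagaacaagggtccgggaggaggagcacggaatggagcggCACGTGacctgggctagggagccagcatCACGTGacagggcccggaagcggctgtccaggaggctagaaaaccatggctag
Slc15a4: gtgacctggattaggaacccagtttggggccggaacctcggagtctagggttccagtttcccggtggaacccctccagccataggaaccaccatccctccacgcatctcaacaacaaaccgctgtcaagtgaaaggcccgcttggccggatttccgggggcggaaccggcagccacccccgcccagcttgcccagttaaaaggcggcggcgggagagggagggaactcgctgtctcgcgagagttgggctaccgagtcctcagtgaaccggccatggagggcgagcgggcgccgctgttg
Slc43a2: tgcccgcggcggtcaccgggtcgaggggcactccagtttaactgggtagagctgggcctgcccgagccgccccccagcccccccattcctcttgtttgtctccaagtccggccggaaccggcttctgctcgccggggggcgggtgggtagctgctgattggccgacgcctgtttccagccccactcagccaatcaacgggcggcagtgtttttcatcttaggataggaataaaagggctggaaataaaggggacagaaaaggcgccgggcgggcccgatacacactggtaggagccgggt
The letters describe these windows; binding was not measured.

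Across the 16 arrays the deposited values ran from 3.07 to 14.2, and the array medians over all rows from 7.02 to 7.12. Both 5 h arrays numbered 4 stood apart: their interquartile ranges over the named genes were 3.65 each, against 3.11 to 3.39 on the other 5 h arrays. Deviations of same-numbered arrays of the 2 groups correlated with 0.354, 0.584, 0.467 and 0.896 for numbers 1 to 4, but the correlations among numbers 1 to 3 alone were 0.193, -0.00305 and -0.2. Some arrays of different number correlated as much, such as control 3 with deprived 2 (0.68) and control 2 with deprived 1 (0.531). The pairing thus rests on number 4, and each comparison at 5 h is given without and with the replicate number as a block. Of 8 neural progenitor markers 5 lay above the median gene (Nes, Sox2, Vim, Hes5 and Notch1), of 13 hypothalamic markers 4 (Otp, Sim1, Hmx2 and Lhx6, but not Nkx2-1 or Pomc) and of 12 neuronal markers 2 (Map2 and Stmn2, but not Tubb3 or Rbfox3). So did 7 of 9 fibroblast markers, Col1a1 and Pdgfrb among them, 3 of 8 astrocyte markers (Slc1a3, Gja1 and Sox9), 2 of 15 microglia and macrophage markers (Cx3cr1 and Cd68), 1 of 7 oligodendrocyte and 0 of 7 endothelial markers. Some of these markers moved with deprivation. At 5 h Nes (-0.69), Gja1 (-0.76) and Lhx6 (-0.46) fell in the unpaired limma fit, in which 1.7% of all genes were called lower. With the block 10% of all genes were called lower. Of the marker lists, 3 fibroblast markers were then lower, 2 each of neural progenitors, astrocytes and macrophages, and 1 each of hypothalamus and oligodendrocytes. On the single pair of arrays at 16 h Slc1a3 differed by -2.49, Dcn by -2.33 and Col1a1 by -2.13. The mean level of the fibroblast list was 8.18 to 8.58 on the 5 h control arrays and 8.09 to 8.27 on the deprived ones. The part of these markers in the results on the carriers was not tested. A list of 20 amino acid response targets was taken as the control of the treatment. It was chosen with earlier results of these data known and is no independent check. All 20 genes rose at 5 h in limma, with a median difference of 1.64.

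The response of the carriers to deprivation was small beside that. After 5 h none of the 10 genes had an adjusted p under 0.05 in limma's unpaired fit, in which 820 of 19938 genes (4.11%) passed. At an unadjusted p under 0.05 there were 3 of 10, Slc36a1, Slc15a4 and Slc43a2, and 2740 of all genes. With the replicate number as a block 4 of the 10 passed, Slc36a1 and Slc15a4 higher and Slc43a2 and Slc43a3 lower in deprived cells, against 18.2% of all genes (8.22% higher and 10% lower). Without both arrays numbered 4, 3 passed, Slc36a1, Slc15a4 and Slc43a2, against 13.5% of all genes. The median difference over the 10 genes was -0.02, and -0.01 over all genes.

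**Figure D1:**
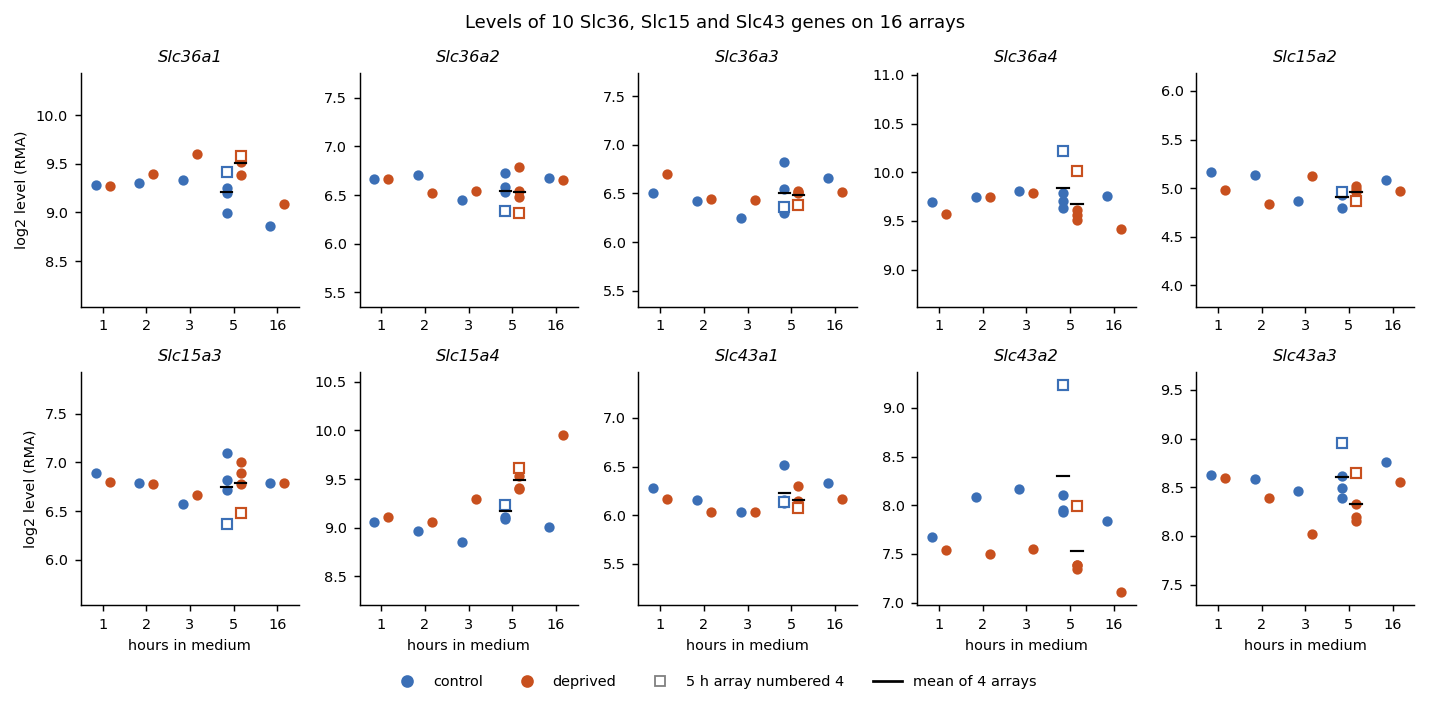
Log2 level (vertical axis, a span of 2.4 in every panel) of each of the 10 genes on each of the 16 arrays, by hours in medium (horizontal axis, not to scale), with control arrays in blue, deprived arrays in orange, the 5 h arrays numbered 4 as open squares and the 5 h means as bars. The deprived points of Slc43a2 lie below the control point at every single-array time, and those of Slc15a4 at 5 h lie above all 4 control points.

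Slc43a2, a facilitative carrier of branched-chain amino acids, phenylalanine and methionine also known as LAT4, had the largest difference of the 10 genes at 5 h. The control arrays numbered 1 to 4 read 7.95, 7.93, 8.11 and 9.24, and the deprived arrays 7.34, 7.38, 7.39 and 7.99. Each deprived array was below the control array of its number, while deprived array 4 lay within the range of the controls, and array 4 was the highest of its group in both media. The means were 8.31 (SD 0.63, n = 4) and 7.53 (SD 0.31, n = 4), a difference of -0.78 (SE 0.28; 95% interval -1.41 to -0.15), or 1.72-fold lower. In bulk RNA, fewer cells with a transcript and less of it per cell cannot be told apart. In limma the adjusted p was 0.217 without the block and 0.000329 with it. Without both arrays numbered 4 the difference was -0.63 (SE 0.07; adjusted p = 0.000204 in limma). Without control array 4 alone it was -0.47.

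Over time the gene was lower in deprived cells in all 8 pairs of arrays. Control arrays read 7.68, 8.09, 8.17 and 7.84 after 1, 2, 3 and 16 h, and deprived arrays 7.54, 7.50, 7.55 and 7.11. The difference was -0.13 after 1 h and -0.58, just short of 1.5-fold, after 2 h. It was -0.62 (1.54-fold) after 3 h and -0.73 (1.66-fold) after 16 h. These had no replicate check. All 4 control arrays lay above all 4 deprived arrays of the single-array times. Their mean difference was -0.52 (SE 0.11, 95% interval -0.78 to -0.25), with an unadjusted p = 0.00313 and an adjusted p = 0.554 in limma with time as a factor.

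Slc15a4, the lysosomal histidine and peptide carrier PHT1, was higher in deprived cells. At 5 h the control arrays read 9.11, 9.10, 9.24 and 9.24, and the deprived arrays 9.53, 9.41, 9.40 and 9.61. It was the only one of the 10 genes whose groups did not overlap at 5 h. That count of 1 in 10 was close to the share of all genes, 10.5%. The mean went from 9.17 (SD 0.08, n = 4) to 9.49 (SD 0.10, n = 4), a difference of 0.32 (SE 0.08; 95% interval 0.14 to 0.50), or 1.25-fold. The adjusted p in limma was 0.066 without the block and 0.00558 with it. Over the 17 alternative settings, the block included, it ran from 0.000146 to 0.212 and was under 0.05 in 5. At the other times the gene was higher by 0.05, 0.09, 0.44 and 0.94 at 1, 2, 3 and 16 h. The deprived array at 16 h read 9.95 and was the highest of all 16, 1.92-fold above its control at 9.01, while the 8 control arrays stayed between 8.85 and 9.24. The mean difference over the single-array times was 0.38 (SE 0.16, adjusted p = 0.797 in limma), and 0.19 without the 16 h arrays. Beside it, the mean level of the 15 microglia and macrophage markers was 6.15 to 6.41 on the 5 h control arrays and 6.0 to 6.26 on the deprived ones. None of these markers was called without the block (4.11% of all genes), and 2 of 15 were lower with it (10% of all genes). On the single pair of arrays at 16 h their median difference was -0.05. The part of these markers in the difference of Slc15a4 was not tested.

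Slc36a1, the lysosomal proton-coupled exporter of small neutral amino acids, was also higher at 5 h. The control arrays read 9.25, 9.00, 9.20 and 9.41, and the deprived arrays 9.54, 9.52, 9.39 and 9.58. Each deprived array exceeded the control of its number, but control array 4 lay above deprived array 3, so the groups overlapped. The difference was 0.29 (SE 0.10; 95% interval 0.07 to 0.51), or 1.22-fold, between means of 9.21 (SD 0.17) and 9.51 (SD 0.08) over 4 arrays each. The adjusted p in limma was 0.169 without the block, 0.0148 with it and 0.0205 without both arrays numbered 4. After 1, 2, 3 and 16 h the differences were -0.01, 0.10, 0.27 and 0.22. Both 16 h arrays were low for this gene, 8.86 in control and 9.08 in deprived cells. The mean difference over the single-array times was 0.15 (SE 0.07, adjusted p = 0.808 in limma).

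Slc43a3, the purine nucleobase carrier, was lower in each pair at 5 h. The control arrays read 8.49, 8.38, 8.62 and 8.95, and the deprived arrays 8.33, 8.15, 8.20 and 8.65. The groups overlapped, since array 4 was the highest in both media. The difference was -0.28 (SE 0.14; 95% interval -0.60 to 0.05), with an adjusted p in limma of 0.494 without the block and 0.0115 with it. Without control array 4 alone the difference was -0.16, and with array weights -0.15. Without both arrays numbered 4 it was -0.27 and missed the threshold narrowly (adjusted p = 0.0501 in limma). It was -0.03, -0.19, -0.44 and -0.20 at 1, 2, 3 and 16 h, and the lowest of all 16 values was the deprived array at 3 h (8.02). The mean over these times was -0.22 (SE 0.09, adjusted p = 0.792 in limma).

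**Figure D2:**
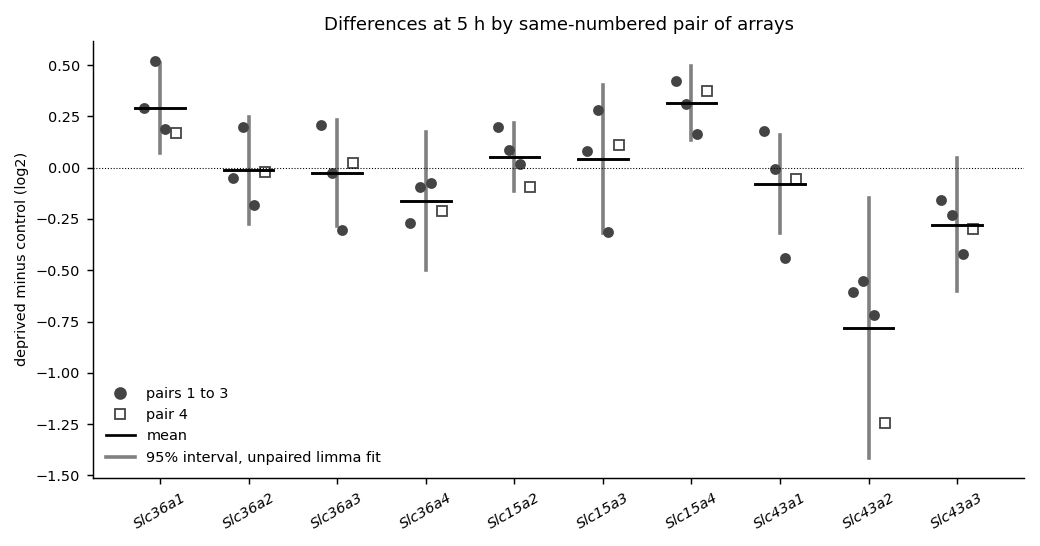
Difference between the deprived and the control array of the same number at 5 h (vertical axis, log2) for each of the 10 genes, with pairs 1 to 3 as dots, pair 4 as an open square, the mean as a black bar and the 95% interval of the unpaired limma fit in grey. All 4 pairs lie on one side of 0 for Slc36a1, Slc36a4, Slc15a4, Slc43a2 and Slc43a3.

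Slc36a4, known as PAT4, a high-affinity carrier of tryptophan and proline, did not pass in any setting run. The control arrays read 9.79, 9.71, 9.64 and 10.22, and the deprived arrays 9.51, 9.61, 9.56 and 10.01. Array 4 was the highest in both media and the groups overlapped. The difference was -0.16 (SE 0.15; 95% interval -0.50 to 0.18), and the adjusted p in limma was 0.888 without the block and 0.108 with it. Without control array 4 the difference was -0.03, and without deprived array 4 it was -0.28. The differences after 1, 2, 3 and 16 h were -0.12, 0.00, -0.02 and -0.34, and at 16 h the deprived array (9.41) was the lowest of the 16.

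All 4 same-numbered pairs at 5 h went one way in 5 of the 10 genes, Slc36a1, Slc36a4, Slc15a4, Slc43a2 and Slc43a3, against 34.6% of all genes. All 8 pairs of arrays did so in 3 of 10, Slc15a4, Slc43a2 and Slc43a3, against 7.95% of all genes. None of the 10 differed by at least 1.5-fold at 1 h (0.461% of all genes) or 2 h (1.11%). Slc43a2 did at 3 h (1.14%), and Slc43a2 and Slc15a4 at 16 h (14.7%), so 2 of 10 at 16 h was close to the share of all genes. In limma the mean over the single-array times gave 0 calls among all genes (0%), and so none among the 10. At an unadjusted p under 0.05 there were 2 of 10, Slc43a2 and Slc43a3, and 1244 of all genes.

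**Figure D3:**
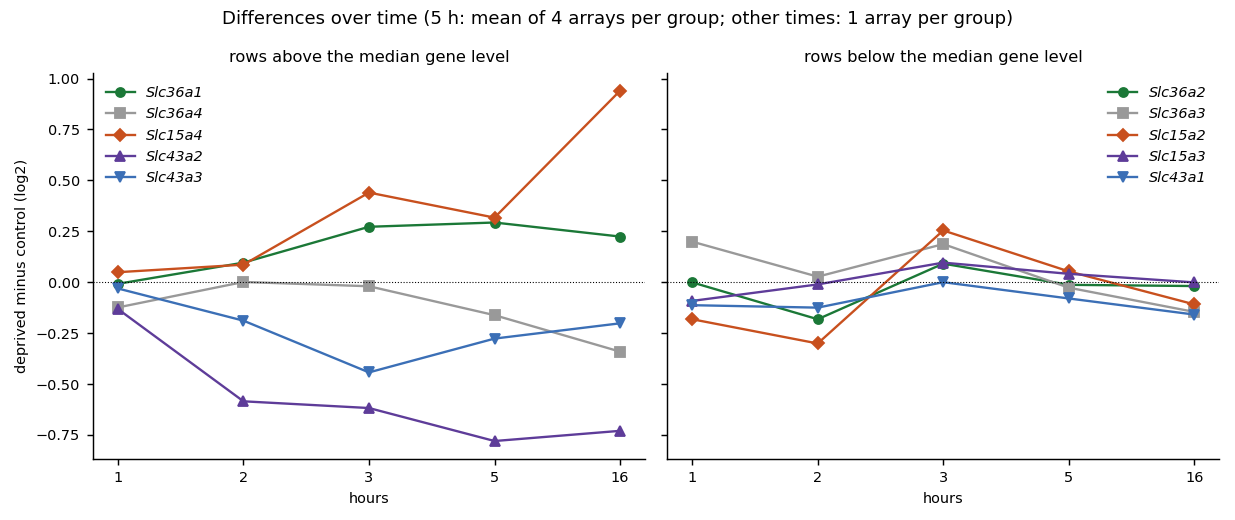
Deprived minus control level (vertical axis, log2) at each time (horizontal axis, not to scale) for the 5 genes with rows above the median gene (left) and the 5 below it (right), from 4 arrays per group at 5 h and 1 at the other times. At 16 h Slc15a4 is at 0.94 and Slc43a2 at -0.73, and the lines of the right panel stay between -0.30 and 0.25.

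The other 5 genes had rows below the median gene, where a weak transcript and array background cannot be separated in these values. Slc36a2, a carrier of glycine, alanine and proline, ran from 6.32 to 6.78 over the 16 arrays and differed by -0.01 at 5 h (95% interval -0.28 to 0.25). Slc36a3, a family member without an established substrate, ran from 6.24 to 6.83 and differed by -0.03 (-0.29 to 0.23). Both belong to the same gene cluster as Slc36a1. Their intervals at 5 h include 0 and that of Slc36a1 does not, but the differences between the genes were not tested. The peptide carrier Slc15a2, known as PEPT2, ran from 4.80 to 5.17 and differed by 0.05 (-0.11 to 0.22). Slc15a3, the lysosomal relative of Slc15a4, ran from 6.37 to 7.10 and differed by 0.04 (-0.32 to 0.40). Slc43a1, known as LAT3 and a relative of Slc43a2 with similar substrates, ran from 6.03 to 6.52 and differed by -0.08 (-0.32 to 0.16). In limma the adjusted p of these 5 genes was 0.977 or higher without the block and 0.657 or higher with it. The widest of these intervals, that of Slc15a3, reaches 1.32-fold. The groups of all 5 overlapped at 5 h. At the single-array times the largest of their differences was that of Slc15a2 at 2 h (-0.30), followed at 3 h by one of opposite sign (0.25). The family members Slc15a1 and Slc15a5, intestinal-type and orphan peptide carriers outside the group of 10, were likewise below the median gene and differed by -0.02 and 0.02.

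The genes whose differences at 1, 2, 3, 5 and 16 h lay closest to those of the 4 genes called with the block, out of all named genes, were found by root mean square distance over these 5 values, as a description only. For Slc15a4 they were Rad9a (distance 0.05), Tbc1d9 (0.09) and Zc3h8 (0.12), with 16 h differences of 0.96, 1.10 and 0.99. For Slc43a2 they were the cyclin D1 gene Ccnd1 (0.12), Map1a (0.13) and the cyclin E1 gene Ccne1 (0.14), with 5 h differences of -0.61, -0.84 and -0.98. The nearest to Slc36a1 were Pbrm1, Dnajc13 and Polr1c, and the nearest to Slc43a3 were Cdkl3, G3bp1 and Entpd6.

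Lists of genes that work beside these carriers were described in the same fits, in which 2.41% of all genes were called higher and 1.7% lower at 5 h without the block. With the block these shares were 8.22% and 10%. Of 7 genes of heteromeric amino acid carriers, which pair a light chain with the heavy chain Slc3a2 or Slc3a1, 3 rose and none fell. Slc7a5, a light chain of system L, whose substrates overlap those of Slc43a2, rose by 1.11 (SE 0.13), and its heavy chain Slc3a2 by 0.76 (SE 0.08). The other system L light chain, Slc7a8, differed by 0.02 (SE 0.11) and did not pass. Slc3a1, the heavy chain of a different system that exchanges cystine and cationic amino acids, rose by 0.35 (SE 0.08, adjusted p = 0.0428 in limma). Its row lay below the median gene, where a weak transcript and array background cannot be separated. Of 12 genes whose products use branched-chain amino acids 2 rose, Lars and Vars, which charge leucine and valine tRNA, by 0.77 (SE 0.17) and 0.38 (SE 0.08). The block raised this to 6 higher and 1 lower.

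Of 25 other carriers and channels listed for lysosomal membranes, a list from general knowledge that also holds a few proteins better known elsewhere, 5 rose and none fell, with a median difference of 0.16. Slc38a7, a lysosomal glutamine carrier, rose by 1.05 (SE 0.14), Clcn7, a chloride and proton exchanger, by 0.74 (SE 0.08), Slc17a5, a sialic acid carrier, by 0.36 (SE 0.08) and Mfsd1 by 0.34 (SE 0.08). The fifth was Ctns, the cystine exporter, with 0.79 (SE 0.19). Calls under the block were 11 higher and 2 lower. None of 21 genes of the vacuolar proton pump, which makes the gradient that Slc36a1 and Slc15a4 use in lysosomes, passed without the block, while with it 7 were higher and 5 lower, and the median was 0.04. Of 6 sodium and proton exchangers Slc9a9 rose by 0.98 (SE 0.13), and with the block 1 was higher and 1 lower.

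A list of 24 genes held the Rag GTPases, mTORC1 and its lysosomal anchors. It also held folliculin (Flcn) and its partners, factors of the TFE family and inhibitors of mTORC1. Of the 24 genes 5 rose, while the median was 0.01. Among them were Flcn by 0.68 (SE 0.10) and its partners Fnip1 by 0.83 (SE 0.08) and Fnip2 by 0.45 (SE 0.08). The Rag gene Rragc rose by 0.64 (SE 0.11). In the blocked fit 8 were called higher and 2 lower. None of 33 peptidases, which make and split the peptides that Slc15 carriers move, passed without the block, and 2 were higher and 5 lower with it. None of 12 genes of the endolysosomal innate pathway, in which Slc15a3 and Slc15a4 act in immune cells, passed without the block, and 1 was higher and 2 lower with it. Without both arrays numbered 4 and without the block, 13.5% of all 19938 genes were called, 1265 higher and 1430 lower. In that fit 10 of the lysosomal carriers were higher and 2 lower, and 5 genes of the proton pump were higher and 4 lower. Of the Rag and mTORC1 list 5 were higher and 1 lower, and of the branched-chain list 6 were higher and 1 lower. The peptidases had 1 higher and 3 lower, the innate pathway 1 and 2, and the sodium and proton exchangers 1 and 1. Among the heteromeric carriers 3 were higher and none lower.

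**Figure D4:**
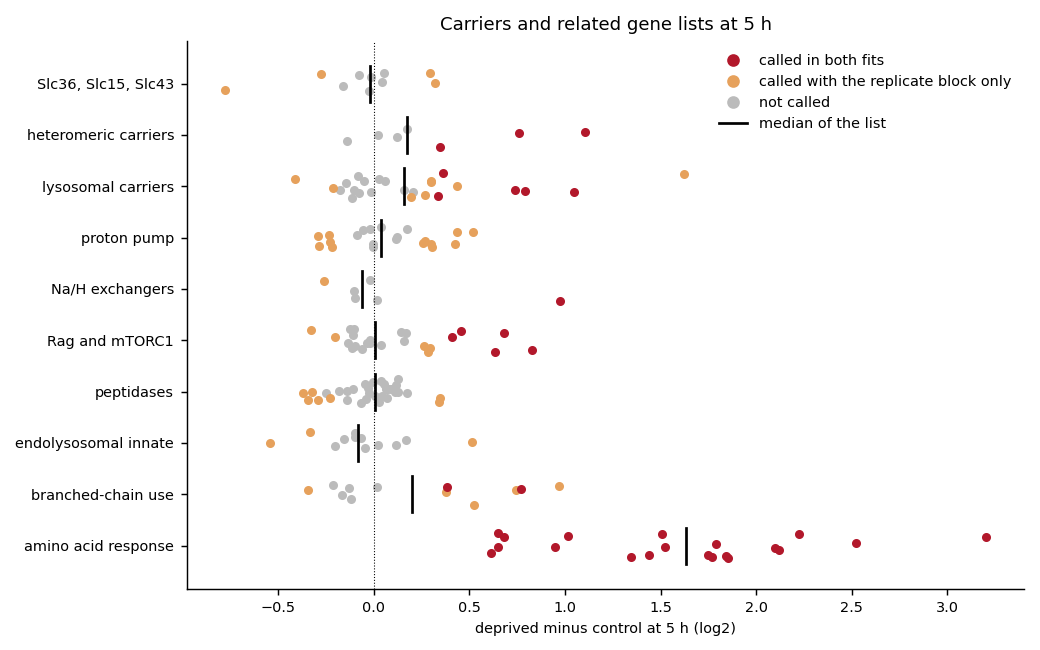
Deprived minus control level at 5 h (horizontal axis, log2) of each measured gene of the 10 carriers and of 9 related lists (rows), with genes called in both limma fits in red, those called with the replicate block only in orange, the rest in grey and the median of each list as a black bar. The median of the carriers is -0.02, that of the heteromeric carriers 0.17 and that of the amino acid response 1.64.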

How the data were processed

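RNA of 16 N25/2 samples was made into biotinylated cDNA and hybridized to Affymetrix arrays, per the labels' protocols. The authors made the deposited log2 values with RMA, according to the submitters' processing notes, where neither RMA nor limma has a version; background and summary settings are not given in the sources used here. RMA shrinks differences of weak rows, and no further normalization was applied.

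Of 35556 rows 21789 carried 1 gene symbol in the platform annotation; 21698 of their Entrez identifiers were found in RefSeq (GRCm38.p6) and updated. Of several rows the one with the highest mean was kept, which left 19938 genes. Tests were two-sided and used limma 3.58.1 (eBayes after lmFit, under R 4.3.3), with Benjamini-Hochberg adjustment over all genes and a threshold of 0.05, at 5 h with 4 arrays per group, and over 1, 2, 3 and 16 h together with time as a factor. Single times had no test. The fits were run on simulated data with independent noise, with no shared effect of the arrays numbered 4 and no change over time. Of log2 changes of 0.5, 43.8% were recovered at 5 h without the block and 15% with it. For the mean over the single-array times 22.5% were recovered. Tables and plots used Python 3.11.15, numpy 2.4.6, pandas 2.3.3 and matplotlib 3.10.9.

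Deviations of same-numbered 5 h arrays correlated above 0.1 in each of the 4 pairs, the criterion for giving the fit with the replicate number as a block. What a number stands for is not in the labels. The members and gene lists were chosen with earlier results of these data known. Named were all 10 members and up to 4 called genes of each list by adjusted p; Ctns, Slc7a8, the cell type markers other than Nes, Gja1 and Lhx6, and the genes near members called only with the block were named after their values were seen. Other settings were the block, requantiling, median centring, rows above the median, averaged rows per gene, unnamed rows included, a trended robust prior, array weights, arrays left out and a 1.5-fold minimum.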

Additional observations from a re-analysis of the deposited data

Results flagged for a closer look

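In 5 of 20 groups of 4 arrays at 5 h, 1 array stood far from the other 3; chance alone would give about 1 in 20 groups. For Slc43a2 this was array 4 in both media, at 9.24 in control cells, where the others read 7.93 to 8.11, and at 7.99 in deprived cells, where they read 7.34 to 7.39. The difference of Slc43a2 was -0.78 with these arrays and -0.63 without both. In the other 3 groups the row lay below the median gene: Slc36a3 on deprived array 4 (6.38), Slc15a2 on control array 1 (4.80) and Slc43a1 on control array 3 (6.52). Why these arrays stood apart was not tested.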

How the results depend on the processing

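All 10 genes had a single row, so averaging rows changed none of their differences. The count of the 10 genes called at 5 h was 0, and 4 with the replicate block, 3 with array weights and 3 without both arrays numbered 4 (Slc36a1, Slc15a4 and Slc43a2 in each), and 1 (Slc15a4) with quantile normalization again and with rows above the median only; it was 0 in each of the other settings run, including each single array left out. Over all 19938 genes the count of 820 (4.11%) became 3632 (18.2%) with the replicate block and 5485 with array weights. It was 2695 (13.5%) without both arrays numbered 4 and 335 with a minimum of 1.5-fold. It ran from 382 to 1066 with 1 array left out: 486, 424 and 521 without control arrays 1, 2 and 3, 382, 424 and 431 without deprived arrays 1, 2 and 3, and 936 and 1066 without deprived and control array 4. With array weights the difference of Slc36a1 was 0.46 and that of Slc43a2 -0.58. The sign of Slc36a4, Slc15a2, Slc15a4, Slc36a1, Slc43a2 and Slc43a3 at 5 h held in all settings run. With 1 array left out, uncalled 5 h differences changed sign within ranges of -0.097 to 0.058 for Slc36a2, -0.096 to 0.080 for Slc36a3, -0.086 to 0.156 for Slc15a3 and -0.131 to 0.015 for Slc43a1, which was 0.017 with array weights. For the mean over the single-array times, 0 genes were called, and 35 without the 16 h arrays, where none of the 10 was called; with 1 time left out, uncalled means changed sign within -0.067 to 0.024 for Slc36a2 and -0.035 to 0.028 for Slc15a3. The causes of these shifts were not tested. Single arrays at 4 of 5 times and rows near the low end of the scale limit what can be detected.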
